A study of Homo sapiens with 20 samples.

Results

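The genes described here encode the subunits of the proteasome, the protease that degrades ubiquitin-tagged proteins, and were read in the RNA of extracellular vesicles and of the cells that released them. All gene symbols that start with PSMA, PSMB, PSMC or PSMD and end in a number were taken, which gave 37 of the 17113 genes in the count table. They were 13 subunits of the constitutive core (PSMA1 to PSMA7, PSMB1, PSMB2, PSMB4, PSMB5, PSMB6 and PSMB7), 20 of the regulatory cap (PSMC1 to PSMC6 and PSMD1 to PSMD14), the 3 immunoproteasome subunits PSMB8, PSMB9 and PSMB10, and PSMA8. PSMB3 and PSMB11 were not analysed here.

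RNA was sequenced from extracellular vesicles and from cells of 10 human colorectal adenocarcinoma lines, 1 library of each per line, giving 10 vesicle and 10 cell libraries. The lines were SW480, COLO-201, HT-29, HCT 116, LS513, LS1034, LoVo, WiDr, LS123 and SNU-C1, all labelled as wild type, with no treatment named, and grown in serum-containing medium. Vesicle libraries were made with a low-input amplification kit and cell libraries with a stranded, ribosomal RNA-depleting kit, per the labels' protocols, so compartment and library kit cannot be told apart in any comparison of vesicles with cells. The values are raw counts per gene, and levels below are CPM, counts relative to the library total and scaled by the trimmed mean of M-values (TMM). Each line has 1 culture per compartment in these data, so the replicate is the line, and how far cultures of the same line differ is unknown. WiDr is known as a derivative of HT-29, and these were the closest pair of cell libraries across genes (Pearson r 0.976 on log2 CPM), followed by HCT 116 and LS123 (r 0.965). The 10 lines may therefore hold fewer independent sources. In bulk RNA, fewer vesicles or cells that hold a transcript and less of it in each cannot be told apart.

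Total counts were 1.75 to 24.4 M in vesicle libraries and 24.8 to 37.4 M in cell libraries. A count of 0 allows a level of up to 3 counts, which was 0.123 to 1.72 CPM in vesicle libraries and 0.0802 to 0.121 CPM in cell libraries, for counting error only. Vesicle libraries also held reads over genes that are nearly silent in every cell library. From these, a background spread over all genes by length and base composition was estimated at 1.98% to 47.6% of vesicle counts and at 0.0336% to 0.154% of cell counts. It was under 10% in the vesicles of SW480, COLO-201, HT-29, HCT 116 and LS513, and 18.4% or more in those of LS1034, LoVo, WiDr, LS123 and SNU-C1. The 9 colon epithelial markers summed to 1991 to 15656 CPM in vesicles and 2395 to 16063 CPM in cells, although KRT20, CDX1, LGALS4 and VIL1 were at or near 0 in some lines. Of 10 leukocyte markers 8 were in the table, and they summed to 10.2 to 217 CPM in vesicles and 0.303 to 9.96 CPM in cells. They had 3290 vesicle counts in all, beside 2146 expected from the background. Their defining gene PTPRC had 316 beside 314 expected, and CSF1R, the highest, had 912 beside 485. Fibroblast and endothelial markers had 5473 vesicle counts beside 2907 expected, and HBB had 1294 beside 107. The part of other cells' RNA in the results was not tested.

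The proteasome is built of a barrel-shaped core and a regulatory cap. In the core, rings of alpha subunits (PSMA) form the gate and rings of beta subunits (PSMB) hold the proteolytic sites. The cap consists of a base, with a ring of ATPases (PSMC) that unfold substrates and large scaffold subunits, and a lid that removes ubiquitin. When cells are exposed to interferon, PSMB8, PSMB9 and PSMB10 replace the catalytic subunits PSMB5, PSMB6 and PSMB7 in newly built cores, and the resulting immunoproteasome favours peptides that fit MHC class I molecules.

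Among the proteasome genes those of the immunoproteasome differed most between lines in cells, so the sequences around their start sites are shown, with TAP1, the peptide transporter gene that lies next to PSMB9. The interferon-stimulated response element core GAAANNGAAA was searched on both strands from 250 bases before to 50 bases after each start site in RefSeq promoter windows of GRCh38.p14. It was found in 1255 of 35116 windows (3.57%). Among the 32 proteasome genes with a window, 4 held it, namely PSMB8, PSMB10, PSMA4 and PSMB4. A gene was counted if any of its windows held the motif, so this count of genes cannot be set against the 3.57% of windows. Each line gives the bases from 150 before to 10 after the start site on the gene's strand, with the motif or its reverse complement in capitals. PSMB8 and TAP1 have a further window each, without the motif, that is not shown. TAP1 held 2 overlapping matches, starting 134 and 128 bases before its start site. A match describes these letters and is not evidence of binding, and a window without one says nothing about the factor.
PSMB8 (chr6:32844038-32844197, minus strand): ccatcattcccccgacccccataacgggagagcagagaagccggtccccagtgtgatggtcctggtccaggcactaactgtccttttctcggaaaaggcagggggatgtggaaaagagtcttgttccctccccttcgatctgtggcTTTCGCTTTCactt
PSMB10 (chr16:67936841-67937000, minus strand): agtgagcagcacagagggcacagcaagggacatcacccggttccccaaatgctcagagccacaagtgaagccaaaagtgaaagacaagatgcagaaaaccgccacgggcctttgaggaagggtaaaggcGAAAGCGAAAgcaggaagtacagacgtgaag
PSMB9 (chr6:32854042-32854201, plus strand): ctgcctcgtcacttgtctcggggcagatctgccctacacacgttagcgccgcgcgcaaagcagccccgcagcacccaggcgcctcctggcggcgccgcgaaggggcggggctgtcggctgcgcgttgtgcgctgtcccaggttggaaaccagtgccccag
TAP1 (chr6:32853695-32853854, minus strand): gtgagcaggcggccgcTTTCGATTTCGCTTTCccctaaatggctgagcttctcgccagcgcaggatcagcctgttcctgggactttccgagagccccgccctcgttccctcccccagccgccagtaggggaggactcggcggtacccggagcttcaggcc

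The core and the cap were first compared as wholes. Within each library, the mean log2 CPM per kilobase of exon over the 13 core genes was set against that over the 20 cap genes. This core-to-cap difference averaged 1.14 ± 0.214 in vesicles and 0.741 ± 0.119 in cells (SD, n = 10 lines each). It was higher in vesicles than in cells in 10 of 10 lines, by 0.404 ± 0.191 on the log2 scale, or 1.32-fold. The smallest difference was 0.20 in WiDr, and the largest were 0.71 in LS513 and 0.78 in COLO-201. The other lines lay at 0.29 in SNU-C1, 0.30 in LoVo, 0.31 in HCT 116, 0.32 in SW480, 0.34 in LS1034, 0.37 in LS123 and 0.41 in HT-29. Since both classes come from the same library, library scaling cancels in this value, as does the division by gene length, but not an effect of length that differs between compartments. A score over chosen genes carries no test here.

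**Figure D1:**
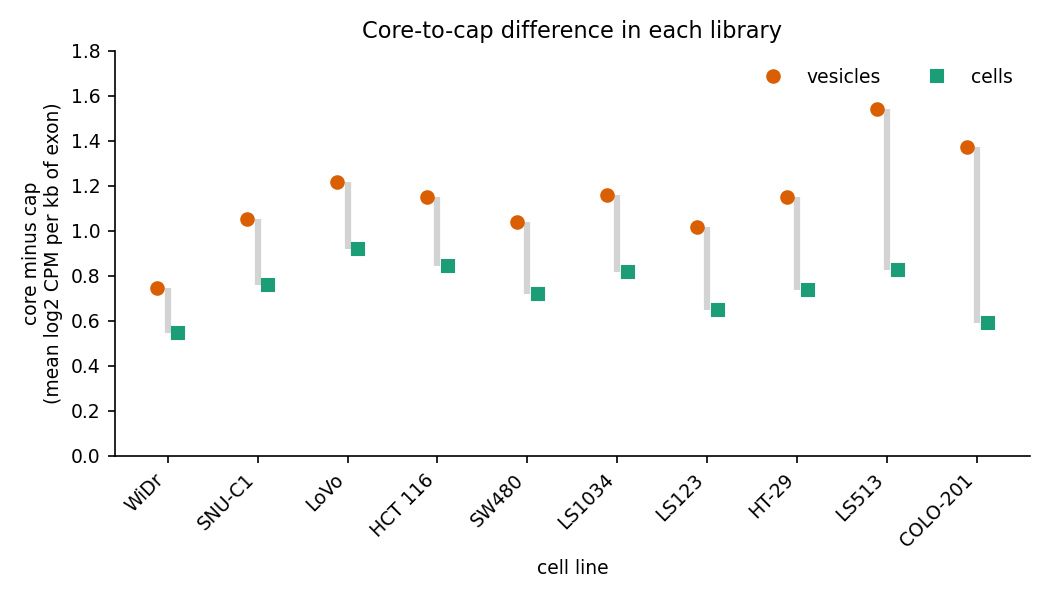
Core-to-cap difference (mean log2 CPM per kilobase of exon over 13 core genes minus that over 20 cap genes) on the vertical axis for each cell line, ordered by the difference between compartments, with vesicles as circles and cells as squares joined by a bar. The vesicle library lies above the cell library in all 10 lines, by 0.20 in WiDr to 0.78 in COLO-201.

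The cap was then split into its ATPase genes and the PSMD genes, which encode its lid, scaffold and chaperone subunits. The core-minus-PSMD difference was higher in vesicles than in cells in 10 of 10 lines, by 0.48 ± 0.248. Against the ATPase genes the core-minus-PSMC difference was higher in 7 of 10 lines, by 0.22 ± 0.314, which is less than its SD. The PSMC-minus-PSMD difference was higher in vesicles in 9 of 10 lines, by 0.26 ± 0.414, the exception being SNU-C1 at -0.76. Within the core, the difference between alpha and beta subunits, PSMA minus PSMB, differed between vesicles and cells by -0.02 ± 0.359, with 6 of 10 lines higher.

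As a share of all counts, the 13 core genes took 0.402% ± 0.142 of vesicle libraries and 0.310% ± 0.0581 of cell libraries, higher in vesicles in 7 of 10 lines. The 20 cap genes took 0.352% ± 0.129 of vesicle libraries and 0.372% ± 0.0885 of cell libraries, higher in vesicles in 4 of 10 lines. The core took a larger share than the cap in 9 of 10 vesicle libraries, all but that of WiDr, and in 0 of 10 cell libraries.

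Vesicles were then compared with cells gene by gene, with edgeR's quasi-likelihood test on all 15130 genes that passed the filter on low counts and the cell line as a block. Of these genes 28.6% were called higher and 28.1% lower in vesicles at an adjusted p of 0.05, so a call is common. Taking the 10024 genes whose mean in cells was 10 CPM or more, 5.29% were called higher and 42.2% lower. Of the 37 proteasome genes 36 passed the filter. In vesicles 6 were called, beside 56.7% of all genes tested, of which 1 was called higher (PSMD9), 5 were called lower (PSMD1, PSMD2, PSMD3, PSMD5 and PSMD12) and 30 were not called. All 6 calls were PSMD genes. The levels of 4 core or cap genes were lower in vesicles in all 10 lines, beside 15.3% of all genes tested, and 1 was higher in all 10, beside 16.6%. The median log2 fold change, vesicle over cell, was -0.13 for the core, -0.51 for the cap, -0.26 for PSMC, -0.55 for PSMD, 0.01 for all genes tested and -0.53 for genes with at least 10 CPM in cells.

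**Figure D2:**
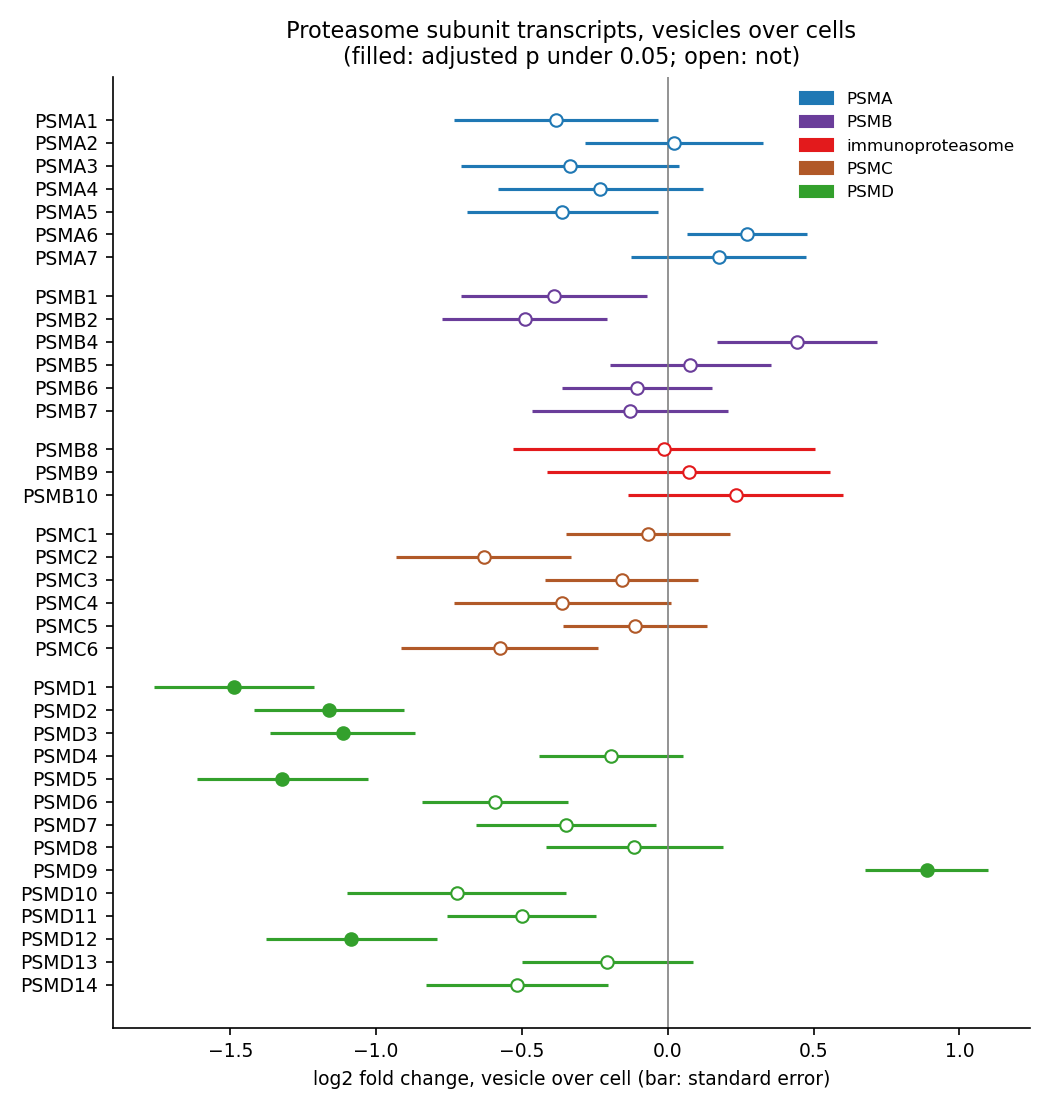
Log2 fold change of each of 36 proteasome genes, vesicle over cell, on the horizontal axis with bars of 1 standard error, grouped by class from PSMA at the top to PSMD at the bottom. Filled points (adjusted p under 0.05) lie in PSMD alone, with PSMD1 lowest at -1.49 and PSMD9 highest at 0.89.

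PSMD1 and PSMD2 encode the 2 large scaffold subunits of the cap base, of which PSMD2 binds ubiquitin and the shuttle proteins that deliver substrates. PSMD1 lay at 65.1 CPM at the lowest, 91.5 at the median and 292 at the highest in vesicles, against 255, 313 and 556 CPM in cells. The ranges overlapped, but its vesicle level was below its cell level in 10 of 10 lines, and HCT 116 was the highest line in both compartments. Its log2 fold change was -1.49 (SE 0.27, edgeR adjusted p 0.000339). PSMD2 lay at 83.8, 199 and 685 CPM in vesicles and 260, 530 and 915 CPM in cells. SW480 had the highest PSMD2 level in vesicles and LS123 the highest in cells, LS1034 was lowest in both, and the groups overlapped although each line was lower in vesicles. Its log2 fold change was -1.16 (SE 0.26, edgeR adjusted p 0.00139). PSMD4, the third base subunit outside the ATPase ring and a ubiquitin receptor, was not called, at -0.19 (SE 0.25, edgeR adjusted p 0.518).

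In the lid, 2 of 8 genes were called lower in vesicles, and all 8 log2 fold changes were below 0 (-1.11 to -0.11). Of all genes tested 28.1% were called lower, and of those with at least 10 CPM in cells 42.2%. PSMD3, a structural lid subunit, lay at 33.2, 77.4 and 175 CPM (lowest, median and highest) in vesicles and at 117, 164 and 277 CPM in cells. The groups overlapped in range, and every line was lower in vesicles. Its log2 fold change was -1.11 (SE 0.25, edgeR adjusted p 0.00155). PSMD12, another structural lid subunit, lay at 55.7, 157 and 593 CPM in vesicles and 193, 328 and 673 CPM in cells, with HCT 116 highest and LS1034 lowest in both. It was lower in vesicles in 9 of 10 lines, the exception being HT-29 with 444 CPM in vesicles and 376 CPM in cells. The log2 fold change of PSMD12 was -1.08 (SE 0.29, edgeR adjusted p 0.00566), and without the line block its adjusted p was 0.166.

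The other 6 lid genes were not called. PSMD6 came nearest at -0.59 (SE 0.25, edgeR adjusted p 0.0557). PSMD14, the deubiquitinase of the lid, had a log2 fold change of -0.52 (SE 0.31), and its partner PSMD7 one of -0.35 (SE 0.31). PSMD7 was also the cap gene that varied least between lines in cells, at 63.1 to 339 CPM in vesicles and 146 to 239 CPM in cells. PSMD8 varied most between lines in cells among PSMD genes and was near even, at -0.11 (SE 0.30). PSMD11 and PSMD13 lay at -0.50 and -0.21. Of PSMD7 exon bases 30.7% are shared with genes on the opposite strand in GENCODE release 29, so its counts are uncertain to that extent, as the strand setting of the counting is not given in the sources used here.

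The 3 assembly chaperones of the base, which are not part of the finished proteasome, differed in direction. PSMD5 lay at 19.6, 46.2 and 119 CPM (lowest, median and highest) in vesicles and 95.8, 131 and 190 CPM in cells. The ranges overlapped, and it was lower in vesicles in 10 of 10 lines, by a log2 value of -1.32 (SE 0.29, edgeR adjusted p 0.00146). PSMD9 lay at 23.3, 29.9 and 45.8 CPM in vesicles and 11.1, 17.5 and 23.1 CPM in cells. It was the 1 proteasome gene whose vesicle and cell levels did not overlap, which held for 12.9% of all genes tested. Its log2 fold change was 0.89 (SE 0.21, edgeR adjusted p 0.00238), higher in 10 of 10 lines. Of its vesicle counts 20.9% were expected from the background, against a median of 0.911% over the 33 core and cap genes. By library this share was 67.5% in WiDr, 63.8% in SNU-C1, 48.1% in LS123 with LS1034 between these, 35.9% in LoVo, 23.5% in LS513 and 5.23% to 12.1% in the other 4. With the background subtracted the log2 fold change of PSMD9 was 1.06 (edgeR adjusted p 0.0210), and it was 0.88 when the 5 lines with a background under 10% were taken alone (edgeR adjusted p 0.0345). Other proteasome genes shifted more in these 2 settings, where 22 and 23 of 36 turned from below to above 0. PSMB6 went from -0.10 to 0.70 with subtraction, and PSMA4 from -0.23 to 0.72 in the 5 lines. PSMD9 also shares 19.9% of its exon bases with other coding genes on the same strand, WDR66 among them, so its counts are uncertain to that extent. PSMD10, the third chaperone, was not called at -0.72 (SE 0.38, edgeR adjusted p 0.114).

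None of the 6 ATPase genes was called. All 6 log2 fold changes were below 0, the lowest in PSMC2 at -0.63 (SE 0.30, edgeR adjusted p 0.0862) and PSMC6 at -0.58 (SE 0.34, edgeR adjusted p 0.158), the highest in PSMC1 at -0.07 (SE 0.28). PSMC2 lay at 41.3, 142 and 529 CPM (lowest, median and highest) in vesicles and 187, 225 and 417 CPM in cells, SNU-C1 being lowest in vesicles and SW480 highest in both. PSMC4 varied most between lines among the ATPases, at 12.2 to 378 CPM in vesicles and 89.6 to 262 CPM in cells, with a log2 fold change of -0.36 (SE 0.37). PSMC1 counts are uncertain, since 75.8% of its exon bases are shared with the opposite strand and 13 pseudogenes carry its symbol in GENCODE release 29.

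None of the 13 core genes was called either, and none had an unadjusted p under 0.05 in the edgeR fit. Among the alpha subunits the log2 fold changes ran from -0.38 (SE 0.35) in PSMA1 to 0.27 (SE 0.21, edgeR adjusted p 0.278) in PSMA6. PSMA7 was the most abundant proteasome transcript per length, at 458 ± 264 CPM per kilobase in vesicles and 365 ± 108 CPM per kilobase in cells, and its log2 fold change was 0.17 (SE 0.30). PSMA5 varied least between lines in cells, at 67.3 to 538 CPM in vesicles and 229 to 331 CPM in cells, with a log2 fold change of -0.36 (SE 0.33). PSMA1, PSMA2 and PSMA6 share 24.7%, 14.6% and 14.1% of their exon bases with another coding gene on the same strand, so their counts are uncertain. Among the beta subunits without catalytic activity, PSMB2 was lowest at -0.49 (SE 0.28, edgeR adjusted p 0.153) and PSMB4 highest at 0.44 (SE 0.27, edgeR adjusted p 0.180). PSMB4 was higher in vesicles in 7 of 10 lines, with 28.9, 126 and 215 CPM (lowest, median and highest) in vesicles and 59.1, 78.1 and 105 CPM in cells.

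PSMA8, the testis-specific alpha subunit, had 0 counts in all 10 cell libraries and did not pass the filter. It had 78 counts over 8 vesicle libraries, beside 70.0 expected from the background.

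The level of both classes in vesicles moved with the background. Across the 10 lines the mean log2 difference of the core, vesicle minus cell, correlated with the background percent at r = -0.964, and that of the cap at r = -0.959 (n = 10 lines, a description). These points share each line's depth and scaling. In the 5 lines with a background under 10% the core differed by 0.35 to 0.84 and the cap by -0.37 to 0.42. In the other 5 lines the core differed by -1.48 to -0.37 and the cap by -1.77 to -0.66. The part of the background in these differences was not tested. The core-to-cap difference itself was positive in both sets, at 0.51 ± 0.226 in the 5 lines of lower background and 0.30 ± 0.0645 in the others (SD, n = 5 each).

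**Figure D3:**
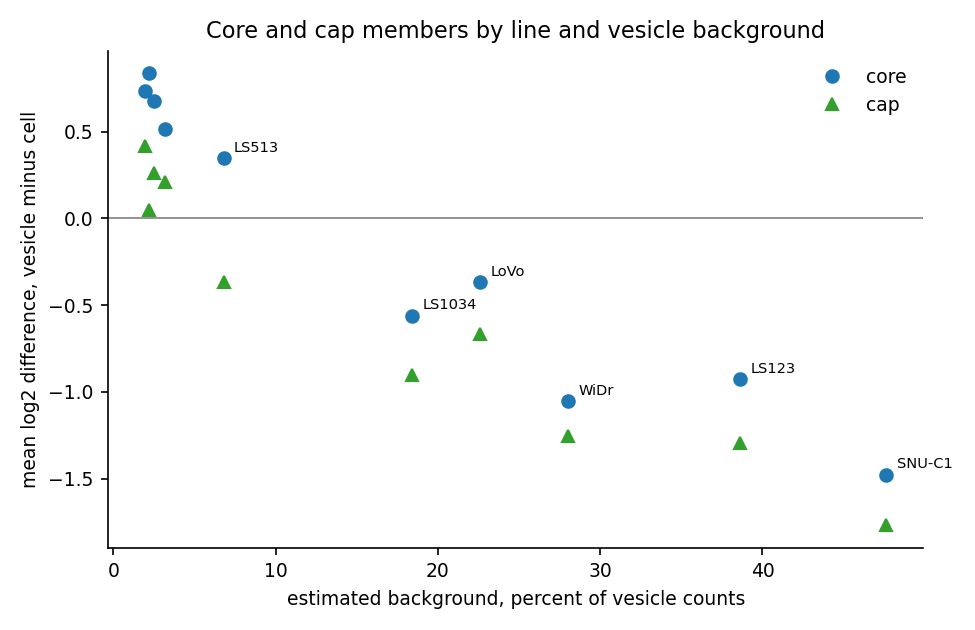
Mean log2 difference, vesicle minus cell, over the core genes (circles) and the cap genes (triangles) on the vertical axis against the estimated background in percent of vesicle counts on the horizontal axis, 1 point of each class per line, with the 6 lines of highest background named. The core lies above the cap in each line, and both lie lowest in SNU-C1, where the background is 47.6%.

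The direction of single classes differed between settings of scaling, background and lines. The gap between the core and cap medians kept its sign in all 22 other settings, and was smallest with the corrections for gene length given below. With the estimated background subtracted, 5 core genes were called higher and 0 lower, and 5 cap genes were called higher and 1 lower. Of all 12766 genes tested with subtraction, 1878 were called higher and 2457 lower. That fit used the counts left after subtraction. In the 5 lines of lower background alone, 7 core genes were called higher, and the cap had 2 higher and 2 lower. Of all 14793 genes tested in these lines, 2881 were called higher and 2816 lower. Upper quartile scaling, under which the median over all genes tested was 0.76 instead of 0.01, gave 6 core genes higher, and 5 cap genes higher and 1 lower. Of all 15130 genes tested, 6957 were called higher and 1759 lower with that scaling. PSMD1 was called lower in all 22 other settings, at -1.65 to -0.73, and PSMD9 higher in all 22, at 0.80 to 1.63. PSMD2 was called lower in 19, PSMD3 and PSMD5 in 17 each and PSMD12 in 16, each keeping a negative sign in all 22. Without LoVo 2 of the 5 lower calls were made, PSMD1 and PSMD2, while PSMD5 lay at -0.89, PSMD3 at -0.81 and PSMD12 at -0.62. In that setting the median over all genes tested was 0.35 instead of 0.01, and 2383 of 15082 genes were called lower. The median of the core minus that of the cap was 0.38 in the fit above and 0.29 to 0.44 in the 20 other settings that did not correct for gene length.

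Gene length differed between the classes. Exonic length had a median of 3119 bases in the core and 4866 bases in the cap. Over the 33 core and cap genes the log2 fold change correlated with exonic length at Spearman rho -0.28, and with the length of the median coding transcript at rho -0.40, both across genes, which are not independent. Over genes with at least 10 CPM in cells rho with exonic length was -0.14. After a correction for the trend of fold change on exonic length, the median of the core minus that of the cap was 0.16, and 0.14 with the trend taken from genes with at least 10 CPM in cells. Both values lie below the uncorrected 0.38, and the part of length in the core-to-cap gap was not tested further.

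Constitutive subunits varied less between lines in cells than genes did at large. The SD of log2 CPM over the 10 lines had a median of 0.963 in vesicles and 0.364 in cells for the core, and of 0.936 in vesicles and 0.474 in cells for the cap. Over all genes tested it was 1.03 in vesicles and 0.754 in cells. Over genes with at least 10 CPM in cells it was 0.877 in vesicles and 0.629 in cells. The core and the cap varied less in cells than either of these sets. In vesicles they varied less than all genes tested and more than genes with at least 10 CPM in cells. Core genes varied together over lines in vesicles, with a median pairwise r of 0.82 in vesicles and 0.15 in cells, and cap genes had medians of 0.76 in vesicles and 0.19 in cells. For pairs drawn from all genes tested these medians were 0.03 in vesicles and 0.00 in cells. Those pairs include genes under 10 CPM in cells and were not matched to the core and cap in level. Whether other genes of like level vary together as much was not tested. Vesicle libraries of a line share depth and background, which move with these values as given above.

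PSMB8 and PSMB9 were the most variable proteasome genes between lines in both compartments, and PSMB10 came next in cells. The SD of log2 CPM over lines was 3.51 in vesicles and 2.93 in cells for PSMB8, 3.06 in vesicles and 1.89 in cells for PSMB9, and 1.41 in vesicles and 1.61 in cells for PSMB10. Among the other proteasome genes the highest was 1.42 in vesicles, in PSMD10, and 0.646 in cells, in PSMD8. Together they took 0.00755% ± 0.00714 of vesicle counts and 0.00564% ± 0.00685 of cell counts. None was called between compartments, with log2 fold changes of -0.01 (SE 0.52) for PSMB8, 0.07 (SE 0.49) for PSMB9 and 0.23 (SE 0.37) for PSMB10, and edgeR adjusted p of 0.985, 0.909 and 0.609. PSMB10 was called higher with upper quartile scaling (0.97, edgeR adjusted p 0.0309) and with the filter at 10 CPM in cells (0.90, edgeR adjusted p 0.0484).

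PSMB8, which takes the place of PSMB5, was highest in LS513 and LS1034. In vesicles it lay at 106 CPM in LS513, 72.9 in LS1034, 40.9 in COLO-201, 39.8 in LoVo, 28.7 in SW480, 27.5 in HT-29, 3.82 in WiDr, 0.66 in HCT 116, 0.28 in LS123 and 0 in SNU-C1. In cells PSMB8 lay at 134 CPM in LS1034, 88.1 in LS513, 26.5 in COLO-201, 22.6 in HT-29, 21.0 in LoVo, 13.7 in SW480, 13.4 in SNU-C1, 5.77 in WiDr, 0.40 in HCT 116 and 0.12 in LS123. HCT 116 and LS123 were thus near the detection limit in both compartments, with 3 and 1 counts in vesicles and 11 and 3 counts in cells. SNU-C1 broke the order, with 0 PSMB8 counts in vesicles. Its cell level, 11.1 CPM of the library total without TMM, would give 19.5 counts there. Against 3 counts that is at least 6.49-fold lower, relative to library totals with the background included, and another scaling would give another bound. The 1.75 M counts of the SNU-C1 vesicle library were the fewest of all, and 47.6% of them were estimated as background. The background model would give 33.3 PSMB8 counts there, more than were seen. It also exceeded the counts seen for PSMB8 in WiDr (34.3 beside 16), HCT 116 (5.91 beside 3) and LS123 (33.4 beside 1), for PSMB9 in SNU-C1 (30.4 beside 0), WiDr (35.8 beside 1) and LS123 (33.2 beside 4), and for PSMB10 in SNU-C1 (31.1 beside 9) and LS123 (21.2 beside 19). Of PSMB8 exon bases 20.6% lie opposite another gene's exons.

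PSMB9, which takes the place of PSMB6, followed a like order. In vesicles it lay at 60.3 CPM in LS1034, 47.5 in LS513, 26.2 in COLO-201, 22.6 in LoVo, 13.3 in SW480, 5.72 in HCT 116, 5.71 in HT-29, 1.12 in LS123, 0.24 in WiDr and 0 in SNU-C1. In cells PSMB9 lay at 80.6 CPM in LS1034, 29.3 in LS513, 11.6 in LoVo, 7.98 in SW480, 7.47 in COLO-201, 4.0 in HT-29, 3.73 in LS123, 3.66 in HCT 116, 1.16 in SNU-C1 and 1.07 in WiDr. LS1034 and LS513 led in both compartments, and SNU-C1 and WiDr were lowest in both. A difference in SNU-C1 was not detectable, as its cell level would give 1.69 counts in the vesicle library. HCT 116 had PSMB9 at 5.72 CPM in vesicles while PSMB8 was at 0.66 CPM, so the 2 genes did not run in parallel in every line.

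PSMB10, which takes the place of PSMB7, was the least variable of the 3. In vesicles it lay at 51.1 CPM in COLO-201, 43.3 in HT-29, 33.01 in LS513, 32.0 in LS1034, 16.9 in SW480, 12.4 in WiDr, 9.24 in HCT 116, 6.21 in LoVo, 5.34 in LS123 and 2.82 in SNU-C1. In cells PSMB10 lay at 49.6 CPM in LS1034, 42.1 in HT-29, 33.6 in LS513, 22.7 in WiDr, 20.1 in COLO-201, 10.7 in SNU-C1, 10.5 in SW480, 3.69 in LS123, 3.54 in LoVo and 1.96 in HCT 116. LoVo had little PSMB10 in either compartment although its PSMB8 was at 39.8 CPM in vesicles and 21.0 CPM in cells. PSMB10 shares 34.8% of its exon bases with another coding gene of the same strand, so its counts are uncertain.

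The catalytic subunits they replace were more even. PSMB5, the chymotrypsin-like subunit, lay in vesicles at 418 CPM in HCT 116, 363 in SW480, 306 in COLO-201, 244 in LS513, 240 in HT-29, 214 in LS123, 183 in LoVo, 127 in LS1034, 106 in WiDr and 47.0 in SNU-C1. In cells PSMB5 lay at 291 CPM in LS123, 285 in HCT 116, 223 in LS1034, 193 in SW480, 171 in LoVo, 163 in HT-29, 155 in LS513, 146 in COLO-201, 140 in SNU-C1 and 138 in WiDr. The highest line exceeded the lowest by 8.91-fold in vesicles and 2.12-fold in cells, and the log2 fold change of PSMB5 was 0.08 (SE 0.28).

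PSMB6, the caspase-like subunit, lay in vesicles at 579 CPM in SW480, 411 in HCT 116, 231 in HT-29 and 219 in COLO-201, then at 209 in LS513, 188 in LS123, 163 in LoVo, 135 in SNU-C1, 80.4 in WiDr and 62.5 in LS1034. In cells PSMB6 lay at 379 CPM in LS123, 369 in SW480, 290 in HCT 116, 254 in COLO-201, 197 in HT-29, 191 in WiDr, 142 in LS513, 138 in LS1034, 134 in LoVo and 114 in SNU-C1. LS1034, the line highest in PSMB9, was lowest in PSMB6 in vesicles. The log2 fold change of PSMB6 was -0.10 (SE 0.26).

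PSMB7, the trypsin-like subunit, lay in vesicles at 559 CPM in SW480, 435 in COLO-201, 378 in HCT 116, 325 in LS513, 312 in HT-29, 173 in LoVo, 160 in LS1034, 138 in LS123, 125 in WiDr and 34.7 in SNU-C1. In cells PSMB7 lay at 316 CPM in LS123, 310 in SW480, 262 in HCT 116, 258 in WiDr, 242 in HT-29, 230 in LS513, 210 in COLO-201, 204 in SNU-C1, 198 in LS1034 and 164 in LoVo. Its log2 fold change was -0.13 (SE 0.34), and the 2 groups overlapped for all 3 constitutive catalytic genes.

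**Figure D4:**
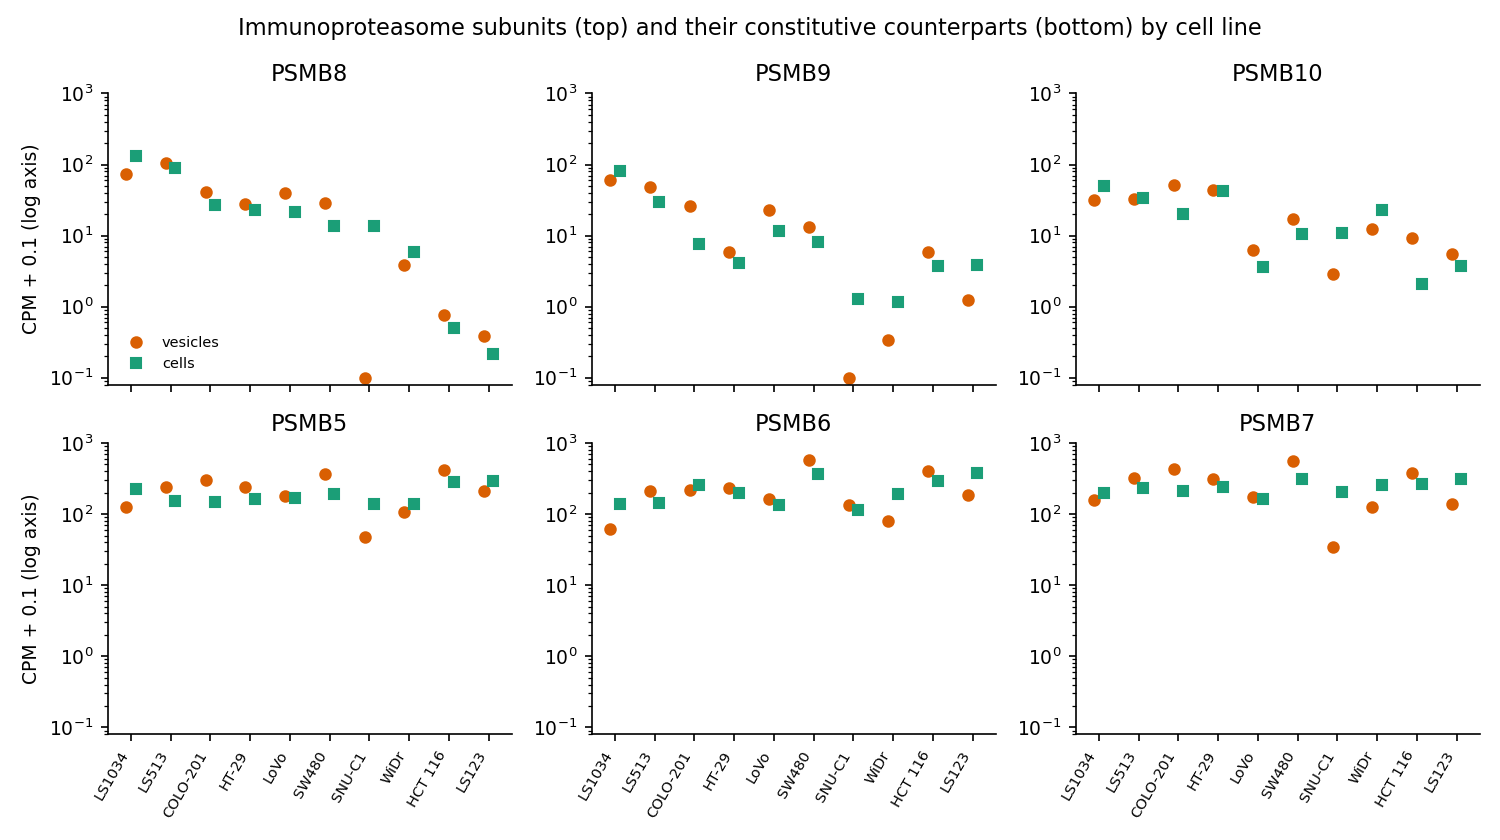
Level in CPM plus 0.1 on a log axis of PSMB8, PSMB9 and PSMB10 (top) and of PSMB5, PSMB6 and PSMB7 (bottom) in each line, with vesicles as circles left of cells as squares and lines ordered by PSMB8 in cells. The top row spans from 0 CPM in SNU-C1 vesicles to 134 CPM in LS1034 cells, and the bottom row from 34.7 to 579 CPM, both in vesicles.

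Set against their constitutive counterparts per length, the immunoproteasome genes were the rarer form in the mean of both compartments. The PSMB8-minus-PSMB5 difference on the log2 scale averaged -5.31 ± 3.24 in vesicles and -4.87 ± 3.20 in cells (SD, n = 10 lines each). The PSMB9-minus-PSMB6 difference averaged -6.11 ± 3.04 in vesicles and -6.03 ± 2.11 in cells. The PSMB10-minus-PSMB7 difference averaged -3.88 ± 1.04 in vesicles and -4.26 ± 1.68 in cells. Vesicles minus cells, these differed by -0.45 ± 1.79, -0.08 ± 1.48 and 0.39 ± 0.799 in that order, each less than its SD. SNU-C1 vesicles had 0 counts of PSMB8 and PSMB9, so its values for both pairs are set by the prior count. Without SNU-C1 the difference was 0.09 ± 0.564 for PSMB8 over PSMB5 and 0.32 ± 0.779 for PSMB9 over PSMB6 (SD, n = 9 lines), of the opposite sign. The largest PSMB8-over-PSMB5 value among these, 1.21 in LS123, came from 1 vesicle count and 3 cell counts of PSMB8. The sign of that mean is therefore uncertain. PSMB9 had 1 vesicle count in WiDr and 4 in LS123, also near the floor.

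Whether the line order of a gene in cells was seen in vesicles was tested per gene over the 10 lines, by Pearson r and Spearman rho on log2 CPM with 100000 permutations, two-sided and adjusted by the Benjamini-Hochberg method over 15130 genes. By Pearson r 1 of 36 proteasome genes was called, PSMB9, beside 2.31% of all genes tested and 5.79% of the 3160 genes at least as variable in cells as PSMB10. PSMB9 had r 0.893 (permutation p 0.00056, adjusted p 0.0385) and rho 0.915 (permutation p 0.00042, adjusted p 0.0620). Without LS513 and LS1034, the lines farthest from its median in cells, its r was 0.943. With a prior count of 0.5 in place of 2 the permutation adjusted p of PSMB9 was 0.0509, and without WiDr and LS123 it was 0.0812, so the call rests on those choices. By Spearman rho 0 of 36 proteasome genes and 0% of all genes were called.

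PSMB8 had r 0.742 (permutation p 0.0162, adjusted p 0.147) and rho 0.879 (adjusted p 0.0900), and r 0.599 without HCT 116 and LS123. PSMB10 had r 0.711 (permutation p 0.0257, adjusted p 0.178) and rho 0.636 (permutation p 0.0554, adjusted p 0.290), and r 0.740 without LoVo and HCT 116. Neither passed the correction. The constitutive counterparts had r of 0.439 for PSMB5, 0.635 for PSMB6 and 0.304 for PSMB7, with permutation adjusted p of 0.460, 0.242 and 0.641. The median r was 0.30 for the core, 0.38 for the cap and 0.38 for all genes tested. The highest r in the cap was 0.736, in PSMD12 (permutation adjusted p 0.155).

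Over lines, PSMB8 correlated with PSMB9 at r 0.86 in vesicles and 0.59 in cells, and with PSMB10 at r 0.80 in vesicles and 0.77 in cells. PSMB9 correlated with TAP1, its divergent neighbour, at r 0.79 in vesicles and 0.87 in cells. PSMB9 with PSMB10 gave r 0.68 in vesicles and 0.35 in cells, PSMB8 with TAP1 0.53 in vesicles and 0.39 in cells, and PSMB10 with TAP1 0.51 in vesicles and 0.25 in cells. These are descriptions over 10 libraries each. In vesicles they rest in part on the prior count, as SNU-C1 had 0 counts of PSMB8 and PSMB9, and LS123 had 1 and 4. TAP1 averaged 2.82 CPM in vesicles. Core genes also had a higher median pairwise r in vesicles, 0.82, than in cells, 0.15.

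Other genes of the pathway were read in the same fit. Of 5 proteasome activators and inhibitors, 1 was called lower, PSME3, a nuclear activator, at -1.01 (SE 0.27, edgeR adjusted p 0.00478), and the list's median was -0.36. PSME1 and PSME2, the interferon-inducible activator pair, lay at -0.36 (SE 0.28) and -0.11 (SE 0.30). Of 8 assembly genes, PSMG3 (0.71, edgeR adjusted p 0.0145) and PSMG4 (0.86, edgeR adjusted p 0.00157), which form a chaperone pair for the core, were called higher. The exonic length of PSMG4 was 10418 bases, beside a median of 4976 over all genes tested. The part of the background in its vesicle counts was not tested. AKIRIN2, which helps import proteasomes into the nucleus, and ECPAS, a proteasome adaptor, were called lower at -0.87 and -1.77 (edgeR adjusted p 0.0100 and 2.76e-06). The median of the assembly list was -0.21.

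Of 5 further cap-associated genes 3 were called lower, among them the deubiquitinases USP14 (-1.79, edgeR adjusted p 0.000215) and UCHL5 (-0.88, edgeR adjusted p 0.0347) and the ligase UBE3C (-1.75, edgeR adjusted p 4.57e-06). The ubiquitin receptor ADRM1 lay at -0.04 (SE 0.24) and SEM1, a small lid subunit, at 0.14 (SE 0.33). Of 4 genes in the transcriptional control of the proteasome 3 were called lower, NFE2L1, NFE2L2 and DDI2. NFE2L1, the transcription factor that raises proteasome genes when activity is low, had 24.9 ± 6.02 CPM in vesicles and 135 ± 51.1 CPM in cells, so its log2 fold change was -2.39 (SE 0.23, edgeR adjusted p 1.86e-06). Of 13 ubiquitin and shuttle genes 8 were called lower and 0 higher, with UBA1, the ubiquitin-activating enzyme, at -2.07 and VCP, the unfoldase upstream of the proteasome, at -2.03 (edgeR adjusted p 9.03e-05 and 1.65e-05). Of all genes tested 28.1% were called lower, and of those with a cell mean of 10 CPM or more 42.2%. That list's median was -1.04, beside -0.53 for the second of these sets.

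The antigen-processing neighbours of the immunoproteasome were read beside PSMB8, PSMB9 and PSMB10, none of which was called. Of 7 such genes 6 passed the filter, all but TAP2, and of these 4 were called lower (TAP1, TAPBP, B2M and ERAP1) and 1 higher (NLRC5), with a median of -1.81, beside 28.1% lower and 28.6% higher among all genes tested. TAP1 had 2.82 ± 2.34 CPM in vesicles and 38.9 ± 47.5 CPM in cells, lower in 10 of 10 lines (log2 fold change -3.67, SE 0.45, edgeR adjusted p 1.08e-05). TAPBP, the tapasin gene that links the transporter to MHC class I, had 2.73 ± 2.06 CPM in vesicles and 34.0 ± 20.3 CPM in cells, also lower in 10 of 10 lines (-3.72, SE 0.43, edgeR adjusted p 6.94e-06). The difference between these genes and the immunoproteasome genes was not tested. NLRC5, an activator of MHC class I genes, was at 38.6 ± 27.4 CPM in vesicles and 21.1 ± 32.5 CPM in cells (1.69, SE 0.45, edgeR adjusted p 0.00486), and IRF1 lay at -0.04 (SE 0.25). The exonic length of NLRC5 was 12386 bases, beside a median of 4976 over all genes tested. How much of its vesicle counts came from the background was not tested.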

How the data were processed

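The 20 libraries were grouped by the labels into 10 vesicle and 10 cell libraries, 1 of each per cell line. The authors deposited raw counts for each gene, for which the submitters' processing notes name STAR, featureCounts and the hg19 build. Their versions, the annotation and the use of strand are not given in the sources used here. Each column was mapped to a library by title. Exonic length, GC content and exon overlaps came from GENCODE release 29 by symbol, matched for 17104 of 17113 genes (99.9%), and no coordinates of the counts' build are given.

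Vesicles were compared with cells by edgeR 4.0.16 in R 4.3.3 (robust quasi-likelihood fit, TMM scaling, filterByExpr, line as block, Benjamini-Hochberg adjustment over 15130 genes, threshold 0.05). The line pairs libraries of the same source per the labels, and deviations from the compartment means correlated at 0.0846 to 0.546 within lines. SEs are absolute log2 fold changes divided by the root of F. Log2 CPM used a prior count of 2. The background was fitted per library by a quasi-Poisson model on length and GC over genes with at most 10 counts in any cell library.

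Genes were named by a rule: PSMB5 to PSMB10, and in each family the 2 members of smallest adjusted p, the extreme fold changes and the extreme SDs over lines in cells. PSMD3, PSMD5 and PSMD12 were added because they were called, and other genes named outside the rule were chosen after their values were seen. A gene of the antigen-processing list is not reported here. The members, lists and tests were chosen with earlier results of these data known. Alternatives covered scaling, filter, block, background, gene length, related lines, each line left out, the prior count and the Wald test of DESeq2 1.42.0. Counts and totals set the precision, and floors cover counting error only, since without molecular identifiers reads are no independent molecules. With the line as block, edgeR p-values rest on how the vesicle-minus-cell difference varies over lines, not on how lines differ in level. Permutation p-values concern the association of vesicle with cell levels across lines.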

Additional observations from a re-analysis of the deposited data

Results flagged for a closer look

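Among 87 groups of 10 values examined, 9 held 1 library far from the other 9 by Dixon's criterion for a gap in 10 values, and chance flags about 1 in 20 groups. SNU-C1 was the library in 7 of them and SW480 in 2. In SNU-C1, PSMB8 was lower in vesicles than in cells by a log2 difference of -6.89. With 0 vesicle counts and 368 cell counts that value is set by the prior count. Relative to library totals, background included, the bound is 6.49-fold or more lower, and another scaling would give another bound. The same line was lowest for PSMC2, vesicle minus cell, at -2.78, and for PSMC4 in vesicles at a log2 CPM of 3.62. Its PSMC-minus-PSMD difference was -0.63 in vesicles, the lowest of the vesicle libraries, and its vesicle-minus-cell value was -0.76, the lowest of the 10 lines. Its vesicle-minus-cell value was also lowest for PSMB8 over PSMB5, at -5.32, and for PSMB9 over PSMB6, at -3.74, both again set by the prior count at 0 vesicle counts, and for PSMB9 a difference was not detectable. The SNU-C1 vesicle library had the lowest total and the highest estimated background, and the part of these in the values was not tested. In SW480 cells PSMC2 was highest at a log2 CPM of 8.70, and the PSMC-minus-PSMD difference was highest in the same library at 0.52.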

How the results depend on the processing

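The core-to-cap difference per line kept its sign in all 15 alternatives (0.36 to 0.47), none of which corrected for a length trend. The median of the core minus that of the cap kept its sign in all 22. It fell to 0.16 and 0.14 with length trends over all genes and over genes of at least 10 CPM in cells (the last chosen after seeing the data). Those trends gave 4 and 1 core genes lower, and the first gave 11 cap genes lower. Of all 15130 genes they gave 5027 and 4479 lower. Core genes called higher numbered 2 with DESeq2 size factors, 3 with DESeq2's Wald test, 4 with library size or the 10 CPM filter, 6 with upper quartile scaling, 5 with background subtracted, 7 in lines of lower background and 1 without WiDr and LS123. Of all 15130 genes, 5325 were called higher with DESeq2 size factors, 6264 with the Wald test and 5532 with library size. With the 10 CPM filter 1942 of 9723 genes were called higher and 1803 lower. Without WiDr and LS123, 3834 of 15015 genes were called higher. Cap genes called higher and lower were 5 and 1 with upper quartile scaling, 2 and 1 with the 10 CPM filter, 5 and 1 with background subtracted, and 2 and 2 in lines of lower background, where the cap median was 0.31. Without the line block 4 cap genes were lower, beside 3438 of all 15130 genes. With 1 line left out 2 to 7 cap genes were lower, beside 2383 to 4277 genes in all. Over 36 genes and 22 alternatives, 201 of 792 fold changes turned sign, most with other scalings, filters and background settings, and 16 of these were called. They were PSMB6 (0.64), PSMC1 (0.68), PSMC3 (0.58), PSMC5 (0.63) and PSMD4 (0.55) with upper quartile scaling, PSMC5 (0.57) with the 10 CPM filter, PSMB6 (0.70), PSMC3 (0.62), PSMC5 (0.63), PSMD4 (0.59) and PSMD8 (0.65) with background subtracted, PSMA1 (0.64), PSMA4 (0.72), PSMB7 (0.68) and PSMD8 (0.58) in lines of lower background, and PSMB5 (-0.69) with the length trend over all genes. None of the 6 genes called in the report turned sign. PSMB10 over PSMB7 became -1.31 with background subtracted. The cause of these changes was not tested. Of the values tracked for named genes, 413 kept their direction and side of the threshold and 112 turned sign without a call. A call was gained by 34 and lost by 21. Another 8 turned sign and were called, and 2 more turned sign. Vesicle depth limits PSMB8 and PSMB9, whose counts in SNU-C1, LS123 and WiDr were at or near 0 in part.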
